A study of Mus musculus with 5 samples.

Results

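The genes described here are 10 components of the route by which the T cell receptor reaches the actin cytoskeleton: the Vav exchange factors Vav1, Vav2 and Vav3, the exchange factor Dock2, the small GTPases Rac1, Rac2, Rhoh and Cdc42, and the actin nucleation regulators Was and Wipf1. They were chosen by gene symbol, with earlier results of the same arrays known, and all 10 were among the 16504 genes that could be named. Each was measured by 1 probe. Total RNA of the whole thymus of ZAS3-null mice and of wild-type littermates was compared on 5 two-colour arrays, each pairing a ZAS3-null with a wild-type thymus RNA sample of the same number. The mice were matched for sex and age and were 6 to 8 weeks old. ZAS3 is the zinc finger protein encoded by Hivep3. The deleted part of the gene, the strain and the use of pooled animals are not given in the sources used here.

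Vav proteins are guanine nucleotide exchange factors: once phosphorylated below an activated antigen receptor, they load Rac and related small GTPases with GTP. GTP-bound Rac and Cdc42 then engage effectors, among them the WASP and WAVE proteins, which switch on the Arp2/3 complex and so start new actin branches. In mouse thymocytes this route serves positive and negative selection, and loss of Vav1 is known to impair both.

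The values were log2 ratios of the channels of each array. From the sample titles and the channel order, positive ratios likely mean more RNA in the ZAS3-null thymus. The sample labels and the design text name opposite dyes for the ZAS3-null RNA, so the direction is not settled. Every array carried the same dye assignment, so dye and genotype cannot be told apart. Fewer cells of a type and less RNA per cell cannot be told apart either. The ratios also followed the slide: per array, the first 10 columns had medians of -0.26 to -0.11 and the last 10 had medians of 0.21 to 0.31. Each value is therefore given as deposited and again after subtraction of the median of the surrounding 21 by 21 spots (position corrected). Hivep3 itself had a mean of 0.08 ± 0.07 as deposited and 0.17 ± 0.09 after correction (SD, n = 5). Its probes check the labels only if they lie in the deleted part.

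Of the 10 genes, 3 had the same sign on all 5 arrays both as deposited and after correction: Vav1 and Rhoh were negative and Was was positive. Cdc42 also had 1 sign on all arrays each time, but it was positive as deposited and negative after correction. Vav2, Vav3, Rac1, Rac2, Dock2 and Wipf1 had both signs among their 5 corrected values. As deposited, 7 of the 10 had 1 sign on every array, beside 37.2% of all named genes, and 4 of the 10 did after correction, beside 26.1%. In the limma fit of all 20861 features, 4 of the 10 (Vav1, Rac1, Dock2 and Wipf1) were negative and 1 (Was) positive past an adjusted p of 0.05 as deposited, beside 24.6% of all features called (12% of the named genes positive and 12.9% negative). After correction 2 (Vav1 and Rhoh) were negative and 0 positive, beside 3.95% of all features called (0.612% of the named genes positive and 2.3% negative). Because the genes were chosen with this contrast known, nothing is read from these counts and no p-value is given for single genes of the set. The counts changed with the arrays used: as deposited they were 1 without array 1, 4 or 5, 2 without array 3 and 5 without array 2. After correction they were 0 without array 4 or 5, 1 without array 1 or 3, and 2 without array 2. Calls over all 20861 features fell as well without array 1, 3, 4 or 5, and rose without array 2. As deposited they went from 5126 to 2905, 3643, 1875 and 1126, and to 6126 without array 2. After correction they went from 825 to 330, 382, 286 and 281, and to 1738 without array 2.

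**Figure D1:**
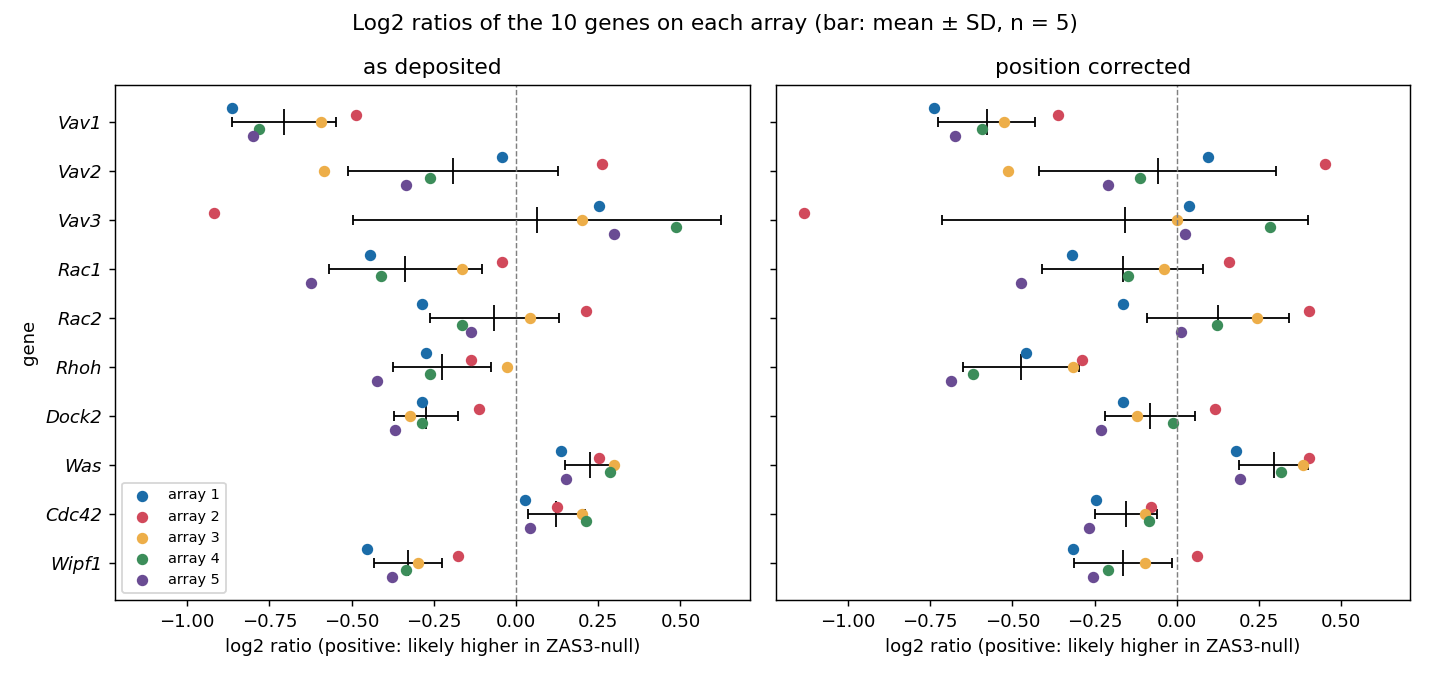
Log2 ratios of the 10 genes (rows) on each of the 5 arrays (coloured points), as deposited at the left and position corrected at the right. The vertical tick is the mean and the bar the SD of 5 arrays. Vav1 lies left of 0 on every array in both panels, Was right of 0, and Vav3 has 1 value, that of array 2, far from its others.

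The stretches before the transcription starts are shown for the 3 genes that kept 1 sign, and for Vav2 and Vav3 as the paralogues of Vav1. A RefSeq promoter entry (GRCm38.p6) was found for 8 of the 10 genes, and not for Rac1 and Rac2. Each sequence is the 250 bases before the annotated start, 5′ to 3′ on the gene's strand, for Vav3 the first of its entries. The places are chr17:57278850-57279099, plus strand, for Vav1; chr5:65863334-65863583, plus strand, for Rhoh; chrX:8090492-8090741, minus strand, for Was; chr2:27427609-27427858, minus strand, for Vav2; and chr3:109340433-109340682, plus strand, for Vav3. Capitals mark matches to the kappaB consensus, to the AP-1 motif TGANTCA or to the RUNX motif TGTGGT on either strand, factors with which ZAS3 is known to share sites or partners.
Vav1: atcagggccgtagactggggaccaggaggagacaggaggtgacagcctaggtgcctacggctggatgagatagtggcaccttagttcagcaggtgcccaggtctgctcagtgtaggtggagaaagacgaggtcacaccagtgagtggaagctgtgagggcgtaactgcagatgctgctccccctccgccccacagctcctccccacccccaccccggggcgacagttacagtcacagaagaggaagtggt
Rhoh: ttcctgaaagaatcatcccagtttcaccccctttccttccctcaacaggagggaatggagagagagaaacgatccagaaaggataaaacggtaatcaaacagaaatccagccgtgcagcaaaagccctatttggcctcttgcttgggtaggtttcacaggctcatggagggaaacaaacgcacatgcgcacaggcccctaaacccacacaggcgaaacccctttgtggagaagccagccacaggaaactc
Was: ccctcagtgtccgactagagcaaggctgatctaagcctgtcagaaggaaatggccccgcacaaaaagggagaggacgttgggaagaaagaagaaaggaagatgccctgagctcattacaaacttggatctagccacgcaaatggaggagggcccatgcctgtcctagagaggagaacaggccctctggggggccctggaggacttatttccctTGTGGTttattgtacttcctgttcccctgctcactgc
Vav2: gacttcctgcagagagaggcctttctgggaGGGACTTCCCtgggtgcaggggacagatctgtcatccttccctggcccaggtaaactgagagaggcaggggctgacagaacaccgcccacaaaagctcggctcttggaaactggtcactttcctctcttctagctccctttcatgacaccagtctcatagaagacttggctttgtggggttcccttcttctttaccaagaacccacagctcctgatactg
Vav3: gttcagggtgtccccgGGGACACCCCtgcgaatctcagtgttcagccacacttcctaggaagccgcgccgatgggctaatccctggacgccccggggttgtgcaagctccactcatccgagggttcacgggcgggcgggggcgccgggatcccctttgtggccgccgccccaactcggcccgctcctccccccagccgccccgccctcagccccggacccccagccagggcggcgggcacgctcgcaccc
The window of Vav1 and that of Rhoh held no match to the 3 motifs. That of Was held 1 RUNX match, whose first base lay 37 bases before the start, and 14.0% of all 32851 promoter windows held at least 1. The windows of Vav2 and Vav3 each held 1 kappaB match, beginning 220 and 234 bases before the start, and 7.25% of all windows did. None of the 5 held an AP-1 match, which 6.75% of all windows did, and no 2 marked matches overlapped. RefSeq gives 3 entries for Vav3: the second, whose window is not printed, held no match to the 3 motifs, and the third held no kappaB match but 1 AP-1 match, beginning 114 bases before that start. A match is only a run of letters and no evidence of binding.

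Vav1 had the lowest mean of the 10 genes. Vav1, the Vav protein of blood cells, had log2 ratios of -0.86, -0.49, -0.59, -0.78 and -0.80 on arrays 1 to 5 as deposited, with a mean of -0.71 ± 0.16 (SD, n = 5; 1.63-fold in size). After correction the values were -0.74, -0.36, -0.52, -0.59 and -0.67, with a mean of -0.58 ± 0.15 (1.49-fold). All 5 values were negative each time, the corrected ones being the same 5 measurements less the local median, and array 2 held the weakest. The corrected mean of Vav1 stood at the 0.573 percentile of all named genes. On arrays 1, 3, 4 and 5 its corrected value lay between the 0.78 and the 2.04 percentile, and on array 2 at the 18.26 percentile. With 1 array left out, the corrected mean ranged from -0.63 to -0.54. The authors followed up genes at 1.5-fold or more on at least 4 of 5 arrays, per the design text, and Vav1 was the only 1 of the 10 to meet it as deposited, beside 0.866% of all named genes. After correction it reached 1.5-fold on 3 arrays, and 0 of the 10 met the rule, beside 0.242% of all named genes.

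Vav2 and Vav3, the more widely expressed Vav proteins, did not share the ratios of Vav1. Vav2 had -0.04, 0.26, -0.58, -0.26 and -0.33 on arrays 1 to 5 as deposited (mean -0.19 ± 0.32), and 0.09, 0.45, -0.51, -0.11 and -0.21 after correction (mean -0.06 ± 0.36). Its values lay on both sides of 0 each time, and the SD exceeded the mean. The log2 ratio of Vav1 lay below that of Vav2 on 5 of 5 arrays as deposited and after correction, by 0.01 on array 3 and by 0.47 to 0.83 on the others after correction. Vav3 had 0.25, -0.92, 0.20, 0.49 and 0.30 as deposited (mean 0.06 ± 0.56) and 0.04, -1.13, 0, 0.28 and 0.02 after correction (mean -0.16 ± 0.56). Array 2 alone was negative. Without it the corrected mean of Vav3 was 0.09, so that its sign turned, and the mean as deposited was 0.31. Vav1 lay below Vav3 on 4 of 5 arrays and above it on array 2. These differences between genes were looked at after the values were seen and were not tested.

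Dock2, an exchange factor for Rac in blood cells that acts in chemokine-driven migration and does not belong to the Vav family, had -0.29, -0.11, -0.32, -0.29 and -0.37 as deposited (mean -0.27 ± 0.10). After correction the values were -0.16, 0.12, -0.12, -0.01 and -0.23 (mean -0.08 ± 0.14). The values as deposited were all negative, and after correction array 2 was above 0 and array 4 close to it. The probe of Dock2 lay in column 19 of the slide, where the surrounding spots had a mean local median of -0.19.

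Of the GTPases that Vav and Dock proteins load, Rac1 is found in most cells and Rac2 in blood cells. Rac1 had -0.44, -0.04, -0.16, -0.41 and -0.62 on arrays 1 to 5 as deposited (mean -0.34 ± 0.23), and -0.32, 0.16, -0.04, -0.15 and -0.47 after correction (mean -0.16 ± 0.24). Rac2 had -0.29, 0.21, 0.04, -0.16 and -0.14 as deposited (mean -0.07 ± 0.20), and -0.16, 0.40, 0.24, 0.12 and 0.01 after correction (mean 0.12 ± 0.22). After correction Rac1 was negative on 4 arrays and Rac2 positive on 4, and the SD of each exceeded its mean. The log2 ratio of Rac1 was below that of Rac2 on 5 of 5 arrays, with a mean difference of -0.29 ± 0.12 after correction. Their probes lay in columns 16 and 12, so the trend across the slide was nearly shared.

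Rhoh, a GTPase of blood cells that does not hydrolyse GTP and is known in mouse thymocytes as a partner of the kinases Lck and Zap70, had the second lowest corrected mean. As deposited its values were -0.28, -0.14, -0.03, -0.26 and -0.42 (mean -0.23 ± 0.15). After correction they were -0.46, -0.29, -0.32, -0.62 and -0.69 (mean -0.47 ± 0.18, 1.39-fold in size). Both sets were negative on every array, and the corrected mean stood at the 1.59 percentile of all named genes against the 21.6 percentile as deposited. Of the 7 genes with a negative mean as deposited, Rhoh was the only one whose mean was lower after correction. Its probe lay in column 89, where the local median was 0.15 to 0.36 on the 5 arrays. The corrected mean ranged from -0.52 to -0.42 with 1 array left out.

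Cdc42, the GTPase that opens WASP, had small ratios whose sign depended on the correction. As deposited they were 0.03, 0.12, 0.20, 0.21 and 0.04 (mean 0.12 ± 0.09). After correction they were -0.25, -0.08, -0.10, -0.08 and -0.27 (mean -0.15 ± 0.09). All 5 were positive the first time and all 5 negative the second, in column 100 of the slide, where the mean local median was 0.28.

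Was, which encodes WASP, the activator of the Arp2/3 complex in blood cells, was the gene with the highest mean. It had 0.14, 0.25, 0.30, 0.29 and 0.15 on arrays 1 to 5 as deposited (mean 0.22 ± 0.08, 1.17-fold in size), and 0.18, 0.40, 0.38, 0.32 and 0.19 after correction (mean 0.29 ± 0.10, 1.23-fold). Every value was positive, and the corrected mean stood at the 94.6 percentile of all named genes. With 1 array left out it ranged from 0.27 to 0.32.

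Wipf1 encodes WIP, which binds WASP and protects it from degradation. It had -0.45, -0.18, -0.30, -0.33 and -0.38 as deposited (mean -0.33 ± 0.10), and -0.32, 0.06, -0.10, -0.21 and -0.25 after correction (mean -0.16 ± 0.15). All 5 values as deposited were negative, and array 2 was above 0 after correction. The log2 ratio of Wipf1 was below that of Was on 5 of 5 arrays by 0.43 to 0.62 as deposited and by 0.34 to 0.52 after correction, with a mean difference of -0.46 ± 0.07 after correction. Both probes lay in column 41 of the slide, in rows 43 and 144. This difference, too, was looked at after the values were seen and was not tested.

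**Figure D2:**
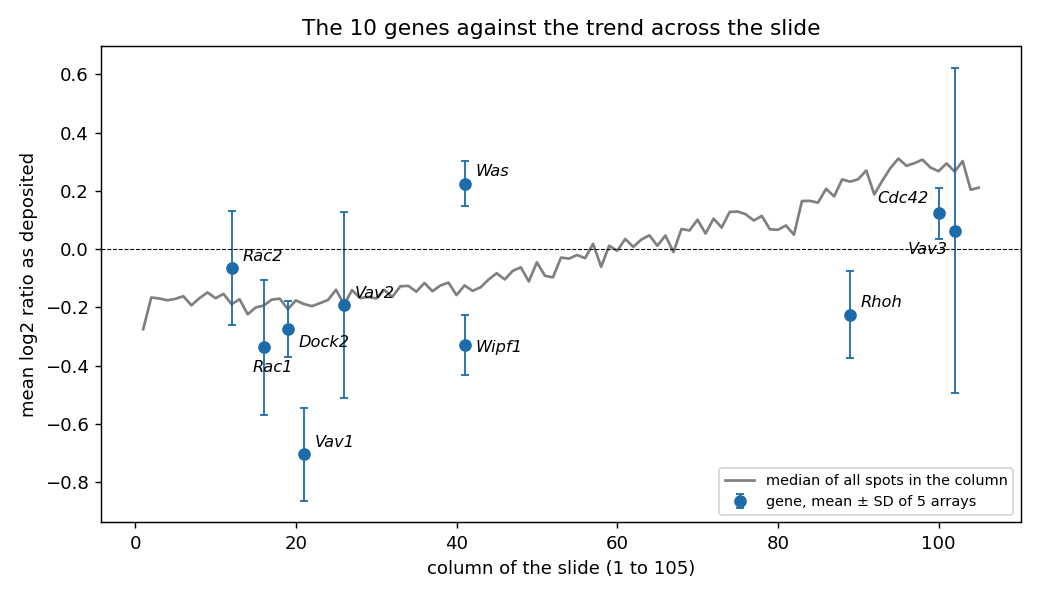
Mean log2 ratio as deposited (vertical axis, points with SD of 5 arrays) of the 10 genes against the column of the slide in which the probe lies (horizontal axis), with the median of all spots of each column as a grey line. Vav1 lies far below the line at column 21 and Rhoh below it at column 89, while Was lies above it and Wipf1 below it at column 41.

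**Figure D3:**
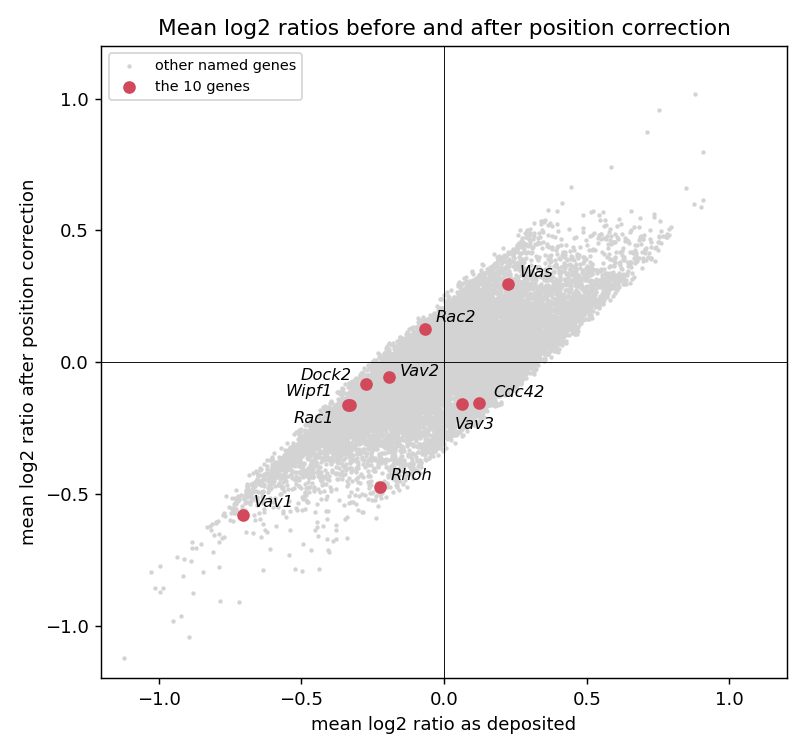
Mean log2 ratio over 5 arrays as deposited (horizontal axis) and after position correction (vertical axis), with the 10 genes in red and the other named genes in grey. The axes stop at 1.2 in both directions and 19 genes lie outside them. Vav1 lies at the lower left edge of the cloud, Rhoh above and to the right of Vav1, and Cdc42, Vav3 and Rac2 in the quadrants where the sign changed.

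After correction, array 2 stood apart from the others for these genes. There 9 of the 10 had their highest corrected ratio, and the exception, Vav3, had its lowest. Over all named genes 33.7% had the highest and 27.8% the lowest corrected ratio on that array. Its corrected ratios also had the widest spread (SD 0.46, against 0.23 to 0.32 on the others). As deposited array 2 stood less apart, and 6 of the 10 had their highest ratio there, beside 23.4% of all named genes. The medians of the 10 genes as deposited were -0.08 on array 2 and -0.10 on array 3. The lowest corrected ratio fell on array 1 for 4 of the 10 genes and on array 5 for another 4. Without array 2, the corrected means of Vav1 and Rhoh were -0.63 and -0.52, and that of Was 0.27. The 14 listed markers of thymocytes also had their highest median on array 2 and their lowest medians on arrays 1 and 5. Their median corrected ratios on arrays 1 to 5 were -0.29, 0.11, -0.05, -0.25 and -0.30, beside -0.20, 0.09, -0.10, -0.10 and -0.24 for the 10 genes. Arrays 3 and 4 were nearly level for the 10 genes and apart for the markers. Of these markers 9 of 14 had their highest corrected ratio on array 2 and the other 5 on array 3. As deposited 7 of the 14 had their highest ratio on array 2 and 7 on array 3. Over all arrays the 14 markers had a median of -0.17 after correction, with 11 of 14 means negative, and means from -0.61 to 0.33. Of all named genes, 8511 of 16504 had a negative corrected mean. As deposited 4 of the 14 markers were negative and 2 positive past an adjusted p of 0.05 with limma. These were 42.9% of the list, beside 24.8% of all named genes. After correction 0 of the 14 markers passed limma at an adjusted p under 0.05, beside 2.91% of all named genes. The part of thymocyte content in the ratios of the 10 genes was not tested.

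Markers of other cells that a whole thymus holds are given beside them. The corrected median was 0.14 for 7 markers of B cells, -0.10 for 7 of macrophages and granulocytes, 0.14 for 10 of thymic epithelium, -0.09 for 10 of endothelium and stroma, and 0.17 for 4 of erythroid cells. On array 2 the erythroid markers had a median of 0.86, against -0.36 to 0.23 on the other arrays. As deposited 4, 2, 2, 1 and 0 markers of these lists in turn passed limma at an adjusted p under 0.05. The share of all named genes was 24.8%. After correction 1 marker of thymic epithelium passed (positive) and 0 of the other lists, beside 2.91% of all named genes. The table holds ratios without brightness, so neither the summed level of a marker list nor a marker at 0 could be read, and the presence of the labelled tissue's markers could not be checked.

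Around the 10 genes, 119 of 130 other listed genes of the pathway were measured. As deposited, 9 were positive and 26 negative past an adjusted p of 0.05 (limma over all features), 29.4% in all, beside 24.8% of all named genes. After correction 0 were positive and 6 negative, 5.04% in all, beside 2.91% of all named genes and 2.3% called negative. Their median was -0.12 as deposited and -0.07 after correction, beside -0.03 and -0.01 for all named genes. Only 5 genes were called both times with the same sign. Leaving out array 1, 3, 4 or 5 brought the count as deposited to 14, 26, 11 or 3, and leaving out array 2 to 39. The corrected count was 0 without array 1, 4 or 5, 1 without array 3 and 10 without array 2. Calls over all features fell too without array 1, 3, 4 or 5 and rose without array 2, as given above.

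Upstream of Vav1, 15 genes for proteins that recruit or modify it at the T cell receptor were measured. As deposited 5 were negative and 0 positive (Zap70, Lcp2, and the adaptor genes Grb2, Grap2 and Nck1 with means of -0.29, -0.35 and -0.29), and after correction 0 passed with limma. An unadjusted p under 0.05 after correction was found for 4 of the 15 (26.7%), near the 27% of all named genes. The calls as deposited were 33.3% of the list, beside 24.8% of all named genes. Zap70, the kinase that binds the activated receptor, had -0.52, -0.60, -0.18, -0.39 and -0.51 on arrays 1 to 5 (mean -0.44 ± 0.17, adjusted p = 0.0128), with a corrected mean of -0.35 ± 0.13 (adjusted p = 0.05001). Lcp2, the scaffold SLP-76 to which Vav1 binds, had -0.41 ± 0.10 (adjusted p = 0.00945), with a corrected mean of -0.27 ± 0.15 (adjusted p = 0.0872). Both genes were negative on 5 of 5 arrays each time, and both calls as deposited were lost without array 5 (adjusted p of 0.062 and 0.0528). The median of the 15 genes was -0.13 after correction.

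Of 21 other GTPase exchange factors and their partners, 3 were positive (Arhgef7 at 0.31, Def6 at 0.21 and Sos1 at 0.39) and 2 negative (Fgd2 and Elmo1, the partner of Dock2, at -0.30) as deposited, and 1 was negative after correction. That gene was Prex1, a Rac exchange factor activated by phosphoinositides and G protein subunits, with -0.51, -0.30, -0.27, -0.40 and -0.59 on arrays 1 to 5 after correction (mean -0.41 ± 0.13, adjusted p = 0.0331). As deposited Prex1 had -0.14 ± 0.16 (adjusted p = 0.212). Fgd2, an exchange factor for Cdc42 in antigen-presenting cells, had -0.68 ± 0.29 as deposited (adjusted p = 0.0112), with a corrected mean of -0.46 ± 0.33 (adjusted p = 0.0816). Its values were weakest on array 3. The corrected call of Prex1 was lost on leaving out array 1, 3, 4 or 5, with adjusted p up to 0.167, and the call of Fgd2 as deposited without array 5 (0.0556). Of the 21 genes 23.8% were called as deposited and 4.76% after correction, beside 24.8% and 2.91% of all named genes. An unadjusted p under 0.05 after correction was found for 23.8%, against 27% of all named genes.

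Among 19 other small GTPases and their inhibitors, 4 were negative and 0 positive as deposited, among them Rhoq (-0.25) and Racgap1 (-0.36), and the other 2 were negative after correction too. Both of these encode GTPase-activating proteins that switch Rac off in blood cells, and both were called each time. Arhgap15 had -0.36 ± 0.08 as deposited (adjusted p = 0.0107), with a corrected mean of -0.30 ± 0.05 (adjusted p = 0.0401), with corrected values between -0.37 and -0.25. Arhgap25 had -0.22 ± 0.08 (adjusted p = 0.0411), with a corrected mean of -0.31 ± 0.07 (adjusted p = 0.0433). All values of both genes were negative. Their corrected calls were lost on leaving out array 1, 3, 4 or 5, with adjusted p up to 0.191 and 0.174. As deposited, Arhgap25 was lost without any 1 of the 5 arrays (up to 0.129) and Arhgap15 without array 5 (0.0583). Of the 19 genes 21.1% were called as deposited and 10.5% after correction, beside 24.8% and 2.91% of all named genes. An unadjusted p under 0.05 after correction was found for 21.1%, against 27% of all named genes.

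The 11 effector kinases and scaffolds of Rac and Cdc42 had a median of 0.01 after correction. As deposited 2 were positive (Map3k11 and Pak4, which had 0.23) and 0 negative, and after correction 0 passed with limma. An unadjusted p under 0.05 after correction was found for 2 of the 11 (18.2%), against 27% of all named genes. The calls as deposited were 18.2% of the list, beside 24.8% of all named genes. Limk2, a kinase that inactivates cofilin, had -0.17 ± 0.20 as deposited (adjusted p = 0.196), with a corrected mean of -0.34 ± 0.16 (adjusted p = 0.0612). Map3k11, a mixed-lineage kinase that binds Rac and Cdc42, had 0.28 ± 0.10 (adjusted p = 0.0260), with a corrected mean of 0.23 ± 0.13 (adjusted p = 0.101). It was positive on 5 of 5 arrays, and its call as deposited was lost on leaving out array 1, 3, 4 or 5, with adjusted p up to 0.0782.

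Of 17 other genes of the WASP and WAVE complexes, 2 were positive (Wasf1 at 0.52 and Brk1 at 0.26) and 3 negative (Wasf2, Abi2 at -0.35 and Trip10 at -0.41) as deposited, and 1 was negative after correction. These were 29.4% and 5.88% of the list, beside 24.8% and 2.91% of all named genes. An unadjusted p under 0.05 after correction was found for 23.5%, against 27% of all named genes. Wasf2, the WAVE protein through which Rac drives actin branching in T cells, had -0.63, -0.56, -0.51, -0.25 and -0.51 on arrays 1 to 5 (mean -0.49 ± 0.14, adjusted p = 0.00854), with a corrected mean of -0.39 ± 0.14 (adjusted p = 0.0403). The corrected call was lost on leaving out array 1, 3, 4 or 5, with adjusted p up to 0.19, and the call as deposited in none of those fits. Wasl, the widely expressed relative of WASP, had 0.09 ± 0.14 as deposited (adjusted p = 0.379), with a corrected mean of 0.28 ± 0.17 (adjusted p = 0.0854), with corrected values from 0.10 to 0.45.

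The 36 genes of the Arp2/3 complex and of actin regulation had 12 negative and 2 positive calls as deposited, and 2 negative and 0 positive calls after correction. These were 38.9% and 5.56% of the list, beside 24.8% and 2.91% of all named genes. An unadjusted p under 0.05 after correction was found for 19 (52.8%), beside 27% of all named genes (4457 of 16504). Actg1, a cytoplasmic actin from a family of near-identical genes, had -0.83, -0.55, -0.38, -0.81 and -0.66 on arrays 1 to 5 (mean -0.64 ± 0.19, adjusted p = 0.0064), with a corrected mean of -0.45 ± 0.18 (adjusted p = 0.0389). Rdx, which encodes radixin, a linker of actin to the membrane, had -0.52 ± 0.11 (adjusted p = 0.00563), with a corrected mean of -0.42 ± 0.15 (adjusted p = 0.0365). Both genes were negative on every array. Their calls as deposited held in each fit with 1 array left out, and their corrected calls were lost on leaving out array 1, 3, 4 or 5, with adjusted p up to 0.183 and 0.169. The median of the 36 genes was -0.13 both times.

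The subunits of the Arp2/3 complex itself were singled out within that list after their values were seen, as were the genes named above by their counts. The 7 measured subunits were Actr3, Arpc1a, Arpc1b, Arpc2, Arpc4, Arpc5 and Arpc5l, and 7 of 7 had a negative mean both times. As deposited their means lay between -0.61 and -0.18 with a median of -0.46, and 6 passed limma at an adjusted p under 0.05, beside 12.9% of the named genes called negative. Arpc2, the lowest of them as deposited, had -0.73, -0.64, -0.11, -0.75 and -0.83 on arrays 1 to 5, so that array 3 stood nearest to 0. Arpc1a, the exception, had a mean of -0.18 (adjusted p = 0.128). Its probe lay in column 89 of the slide, where the column median was 0.23, and its corrected mean was -0.36. The probes of the 6 called subunits lay in columns with negative medians. These were columns 12 (Arpc2, -0.19), 14 (Arpc4 and Arpc5l, -0.22), 17 (Arpc1b, -0.17), 41 (Actr3, -0.12) and 50 (Arpc5, -0.05). After correction the means lay between -0.43 and -0.21 with a median of -0.29, and 0 passed limma, with adjusted p from 0.0623 to 0.244 and 6 of 7 at an unadjusted p under 0.05. The number called as deposited was 4, 5, 6, 2 and 0 on leaving out arrays 1, 2, 3, 4 and 5 in turn, and at most 1 was called in any of those fits after correction.

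**Figure D4:**
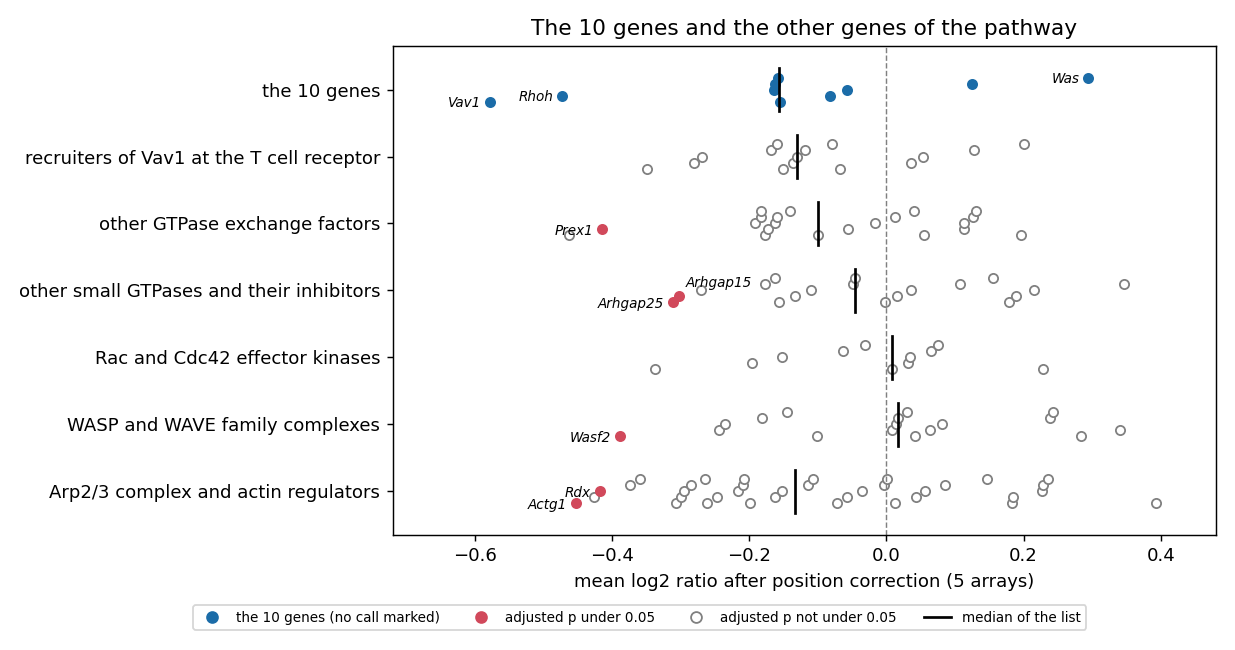
Mean log2 ratio over 5 arrays after position correction (horizontal axis) of the 10 genes and of the other genes of the pathway, 1 point a gene and 1 row a list, with the median as a black line. Red points passed an adjusted p of 0.05 and are all negative, and the 10 genes, shown in blue, carry no mark of a call.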

How the data were processed

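Log2 ratios of 2 channels were deposited by the authors, 1 column per array for 22575 spots with 0 missing values. Per the labels, total RNA of whole thymus was measured (the design text says thymocytes). The series design text names GenePix for the images and says that ratios were normalized by global lowess in GeneTraffic 2.6, with flagged spots kept out. Within 6e-05, 100% of the values are the log2 of a fold with 2 decimals, against 8.01% for log10.

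Deposited probe numbers and the platform annotation number the slide differently. Of 8 ways to lay them on the grid of 215 rows and 105 columns, 1 put all 256 spots below -1.5 on every array onto numbers without a gene (41 to 83 of 256 in the other 7), and gave 48 genes with at least 10 probes a median SD between probes of 0.07 (0.20 to 0.24). Names follow that order, which was recovered from the data. With it the probes of 1030 genes with 2 probes correlated at 0.13 across genes, which are not independent replicates, so a ratio from 1 probe may not stand for its gene. Probes with 1 gene numbered 18218, with several 16, with none 4341. Probes of a gene were averaged, giving 20861 features.

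Each feature was tested against 0 (limma 3.58.1, R 4.3.3, intercept only, Benjamini-Hochberg over all features, threshold 0.05), as deposited and after subtracting the median of 21 by 21 spots without the 256. The fit was tried on simulated independent noise with added shifts. That noise held no slide trend and no dye effect, so it does not check the fit of the ratios as deposited. The members and lists were chosen with earlier results of these data known. Genes named are the 10, Hivep3, and from each of 6 pathway lists those called both times with 1 sign plus the 2 with the smallest corrected p. Beyond this rule, the other genes behind counts of 5 or fewer calls as deposited and the Arp2/3 subunits were named after their values were seen. Labels number the thymus samples by array without saying whether animals were pooled, so p-values measure only the spread between these samples. The number of arrays limits precision.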

Additional observations from a re-analysis of the deposited data

Results flagged for a closer look

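Vav3 had 1 array far from the other 4. Its log2 ratio on array 2 was -0.92 as deposited, against 0.20 to 0.49 on the other arrays, and -1.13 after position correction, against 0 to 0.28. The gap to the nearest value took 0.798 and 0.80 of the whole range, above the critical value of 0.71 of Dixon's test for 5 values. The other 44 of 46 sets of 5 values looked at, those of 23 genes as deposited and corrected, did not pass it, and chance flags about 1 in 20. The cause was not tested.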

How the results depend on the processing

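Each array's ratio already pairs a ZAS3-null with a wild-type sample, so the fit of these ratios against 0 is a paired one and no further pairing was added. Calls depended on single arrays and on the threshold, and the cause was not tested. As deposited, 5 of the 10 genes were called, 1 to 5 with 1 array left out, 1 at a threshold of 0.01, and 1 with deposited numbers, which put other spots under these names. After position correction 2 were called, 0 to 2 with 1 array left out, 1 at 0.01 and 0 with deposited numbers. Of the pathway genes 35 were called as deposited, 3 to 39 with 1 array left out, 6 at 0.01 and 53 with array weights. After correction 6 were called, 0 to 10 with 1 array left out, 0 at 0.01, 20 at 0.1, 10 with arrays scaled, 27 with array weights and 2 with deposited numbers. Of all features 5126 were called as deposited, 1126 to 6126 with 1 array left out, 1208 at 0.01 and 7842 with array weights. After correction 825 were called, 281 to 1738 with 1 array left out, 289 at 0.01, 2869 at 0.1, 1602 with arrays scaled and 3841 with array weights. The other settings (median centring, robust eBayes, single probes, other windows, column and row medians) kept these counts within 1.5 times. Means of single genes moved by less than their SD in 66 of 70 alternatives as deposited and in 80 of 80 after correction. Most of these alternatives left out 1 array, which by arithmetic cannot move a mean of 5 values by its SD. These counts are therefore no measure of stability. The exceptions were Rhoh, Dock2, Cdc42 and Wipf1 under the position correction, which is given beside each gene.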
